A study of Mus musculus with 17 samples.

Results

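Branched-chain amino acid and ketone breakdown was followed through 28 genes, from the transporters that bring leucine, isoleucine and valine into the cell to the enzymes that end in propionyl-CoA and acetyl-CoA. The genes were chosen by name, as the textbook steps of the pathway, with earlier results of these data known. Each was read from the brightest array probe of the gene among probes well above background on at least 8 arrays. All 28 were measured, out of 18134 genes tested on the array. Transcripts came from epididymal white adipose tissue (the fat pad attached to the epididymis) of adult male wild-type C57BL/6J mice. For 13 weeks all mice ate a high-fat diet that drew 30% of energy from fat, and its carbohydrate had either a high glycemic index (HGI, 9 mice) or a low glycemic index (LGI, 8 mice). No group on another fat level was part of the samples, so both diets share the high-fat feeding. Each value is the log2 ratio of a mouse's Cy5-labelled RNA to a common Cy3-labelled reference pool, and each difference is HGI minus LGI on that log2 scale. The glycemic index ranks carbohydrates by how strongly they raise blood glucose, and the comparison asked which transcripts of the depot differ with it.

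Leucine, isoleucine and valine share their first steps. An aminotransferase removes the amino group, and a mitochondrial dehydrogenase complex, switched off by a kinase and on by a phosphatase, commits the carbon skeleton to breakdown. The branches then part: leucine gives acetyl-CoA and acetoacetate, isoleucine gives acetyl-CoA and propionyl-CoA, and valine gives propionyl-CoA. Adipocytes carry high levels of these enzymes and feed the carbon into the citrate cycle and into lipid synthesis, and the same mitochondria use ketone bodies through Oxct1 and Acat1.

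The results turn on Aldh6a1, Ivd and Slc7a8, which are 3 of the 4 genes with an unadjusted p under 0.05 between the diets, and on Bckdha and Bckdhb, whose levels ran together across mice. Their promoters are shown as the 250 bases before the gene start, from RefSeq's table of assembly GRCm38.p6, written 5′ to 3′ on the gene's strand with motif matches in capitals. For Aldh6a1 and Bckdhb 2 promoters are listed, and the first is shown. Aldh6a1 lies on the minus strand at chr12:84451025-84451274, Ivd on the plus strand at chr2:118861744-118861993 and Slc7a8 on the minus strand at chr14:54781887-54782136. Bckdha lies on the minus strand at chr7:25658762-25659011 and Bckdhb on the plus strand at chr9:83924887-83925136.
Aldh6a1: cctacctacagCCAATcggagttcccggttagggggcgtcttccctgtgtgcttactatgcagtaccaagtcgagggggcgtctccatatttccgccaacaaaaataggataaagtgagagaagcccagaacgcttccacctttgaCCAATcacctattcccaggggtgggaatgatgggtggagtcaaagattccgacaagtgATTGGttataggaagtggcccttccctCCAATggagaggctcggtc
Ivd: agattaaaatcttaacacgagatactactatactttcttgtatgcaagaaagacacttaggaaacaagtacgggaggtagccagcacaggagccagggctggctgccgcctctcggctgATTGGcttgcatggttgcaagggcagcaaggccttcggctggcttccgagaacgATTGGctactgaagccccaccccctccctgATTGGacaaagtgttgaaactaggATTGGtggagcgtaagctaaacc
Slc7a8: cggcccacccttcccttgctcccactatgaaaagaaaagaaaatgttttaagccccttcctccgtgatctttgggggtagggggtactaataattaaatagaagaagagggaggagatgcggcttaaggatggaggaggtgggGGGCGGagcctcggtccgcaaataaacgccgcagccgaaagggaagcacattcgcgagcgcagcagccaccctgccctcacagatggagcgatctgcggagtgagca
Bckdha: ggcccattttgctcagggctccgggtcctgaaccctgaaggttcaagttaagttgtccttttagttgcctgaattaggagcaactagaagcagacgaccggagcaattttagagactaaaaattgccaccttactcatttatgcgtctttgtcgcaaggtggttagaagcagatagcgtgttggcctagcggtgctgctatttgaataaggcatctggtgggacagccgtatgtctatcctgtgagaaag
Bckdhb: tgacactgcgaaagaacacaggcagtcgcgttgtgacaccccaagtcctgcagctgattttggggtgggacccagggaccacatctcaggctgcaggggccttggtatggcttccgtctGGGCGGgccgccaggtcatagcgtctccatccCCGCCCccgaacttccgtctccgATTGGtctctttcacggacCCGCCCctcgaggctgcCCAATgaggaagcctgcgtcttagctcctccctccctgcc
The capitals in Aldh6a1 and Ivd mark 4 CCAAT boxes each, those in Slc7a8 mark 1 GC box, and those in Bckdhb mark 3 GC boxes and 2 CCAAT boxes. The window of Bckdha held none of the 8 motifs searched.

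The motifs were searched as letters on both strands in the 23 of 28 members that the promoter table matched and in all 32851 promoters it lists. The CCAAT box was in 14 of the 23 windows, against 33.8% of all promoters, and the GC box GGGCGG was in 12 of the 23, against 32.7%. The NRF1 motif was in the windows of Hibadh and Pccb (3.74% of all promoters) and the E box CACGTG was in that of Mccc2 (6.02%). No member's window held the C/EBP palindrome TTGCGCAA (0.164% of all promoters), the amino acid response element TGATGNAA (3.45%), the DR1 site of PPAR with RXR (0.0335%) or the estrogen-related receptor site TCAAGGTCA (0.387%). A match describes these letters in this window and is no evidence of binding. No promoter is given for Slc7a5, Dbt, Acat1, Abat or Mut.

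All 16 adipocyte markers checked were well above background on all 17 arrays. So were all 6 seminal vesicle and all 6 mesothelium markers, so detection alone does not tell the tissue. HGI 9 and HGI 10 stood apart from the other mice. Their log ratios over all genes correlated with each other at 0.81 and with the other arrays at -0.049 to 0.14, while the other arrays correlated among themselves at 0.37 to 0.83. They also carried seminal vesicle transcripts, of which Svs2 was at 2.51 in HGI 9 and 2.16 in HGI 10, against -4.71 to -3.97 in the other 15 mice. Counts and medians of each step and gene list are therefore given with all mice and without HGI 9 and HGI 10, and the plot of differences by step shows both for each of the 28 genes. Arrays were split into 2 scan groups by the scan date in the file headers. Of these 8 were scanned first (4 HGI, 4 LGI) and 9 later (5 HGI, 4 LGI), and both diets are in each.

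Most of the breakdown genes had lower mean levels in HGI than in LGI mice, by small amounts that did not pass the test. Of the 28 genes, 20 were lower in HGI, while 47.4% of all genes tested were. The median difference of the 28 genes was -0.10, against 0.01 for all genes tested. By limma with Benjamini-Hochberg adjustment over all genes, 0 of the 28 had an adjusted p under 0.05, as did 0% of all genes. An unadjusted p under 0.05 was reached by 4 of the 28, against 7.74% of all genes: Aldh6a1, Ivd and Acat1 were lower in HGI (3.78% of all genes reached it in that direction) and Slc7a8 was higher (3.96%). For 0 of the 28 genes did the values of the diets separate without overlap, as they did for 0.0386% of all genes tested. Without HGI 9 and HGI 10, 22 of the 28 were lower in HGI (49.9% of all genes), the median difference was -0.07 and 3 reached an unadjusted p under 0.05 (7.79% of all genes), namely Aldh6a1 on the lower side (2.75%) and Slc7a8 and Bcat1 on the higher side (5.04%).

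The median log ratio over the 28 genes in a mouse was -0.16 at the lowest, -0.04 at the middle and 0.02 at the highest HGI mouse, against -0.17, 0.04 and 0.10 in LGI mice. The lowest mouse of each diet was HGI 9 and LGI 9, and the ranges of the diets overlapped. The means of these mouse medians were -0.05 ± 0.06 in HGI (SD, n = 9) and 0.02 ± 0.09 in LGI (SD, n = 8). Within scan groups, 20 of the 28 were lower in HGI in the 8 arrays scanned first (48.2% of all genes), with a median difference of -0.05. In the 9 scanned later 20 were lower as well (46.3% of all genes), with a median of -0.11.

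**Figure D1:**
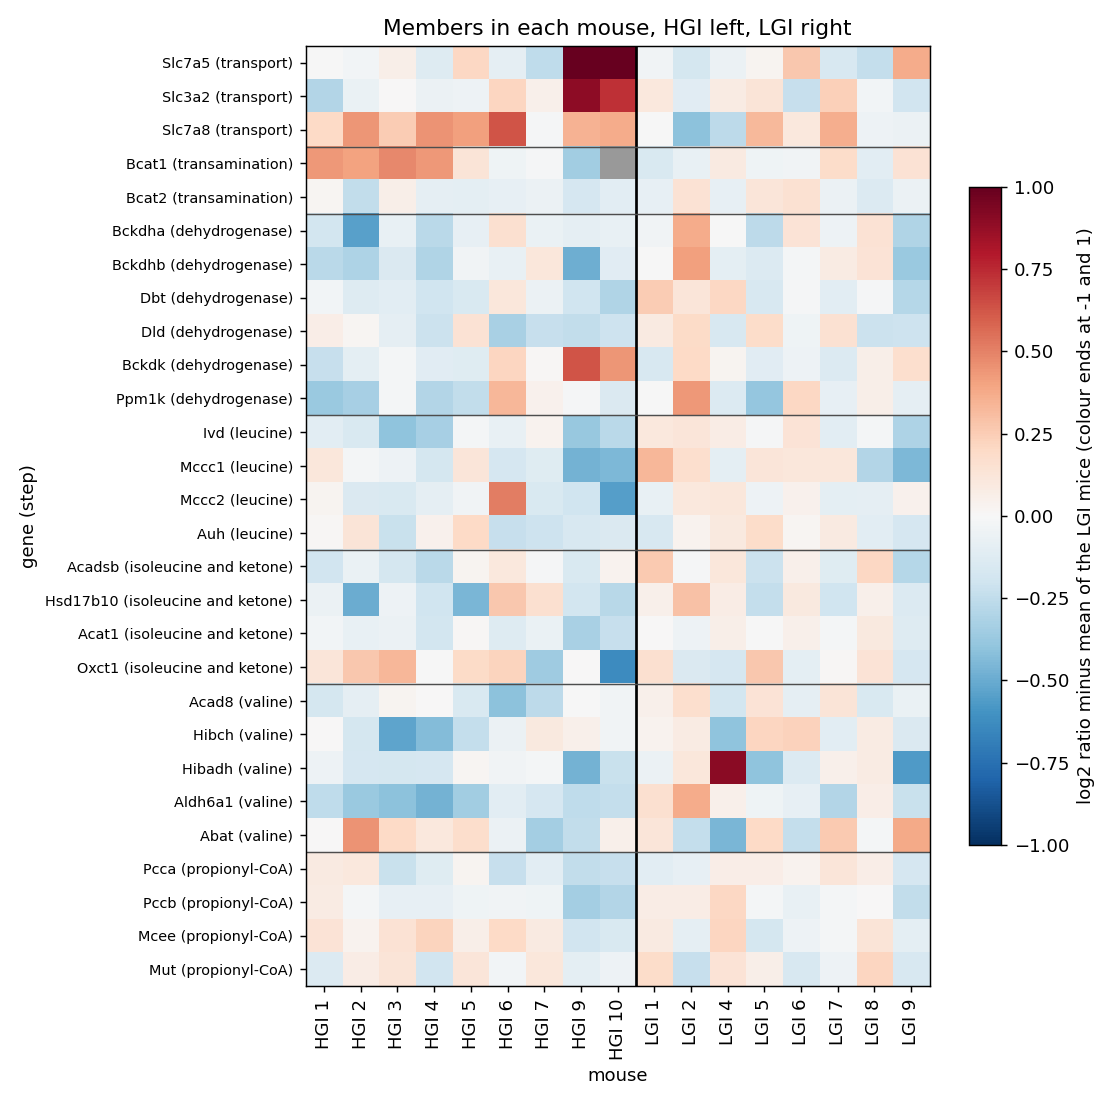
Log2 ratio of each of the 28 genes in each mouse, minus the gene's mean in LGI mice, as colour (the scale ends at 1 in either direction), with genes in rows by step, HGI mice in the left columns and LGI mice in the right. A grey cell is a dropped spot, Bcat1 in HGI 10. HGI 9 and HGI 10 stand out in the transport genes at the top, where Slc7a5 and Slc3a2 are high, and the row of Aldh6a1 is low across the 9 HGI mice.

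The adipocyte markers differed in the same direction as most of the breakdown genes. Of the 16 adipocyte markers, 13 were lower in HGI (47.4% of all genes), with a median difference of -0.16, and 4 reached an unadjusted p under 0.05 on the lower side (3.78% of all genes): Plin1 (-0.22) and Plin4 (-0.21), which coat the lipid droplet, the transcription factor Cebpa (-0.24) and the triglyceride lipase Pnpla2 (-0.20). Their mean level in a mouse ran from -0.32 over a median of -0.05 to 0.08 in HGI, against -0.24, 0.07 and 0.20 in LGI, with the lowest values in HGI 9, HGI 10 and LGI 9. Without HGI 9 and HGI 10, 12 of the 16 were lower (49.9% of all genes), with a median of -0.14, and the lowest HGI mean was -0.13. In that setting 1 reached an unadjusted p under 0.05 on the lower side (2.75% of all genes), Fabp4, the fatty acid binding protein of adipocytes. Of the 14 macrophage markers 13 were higher in HGI, with a median difference of 0.23 and 5 at an unadjusted p under 0.05 on the higher side (3.96% of all genes), and their mean ran from -0.20 over 0.09 to 0.47 in HGI, against -0.28, -0.10 and 0.12 in LGI. Of the 14, 12 were higher without HGI 9 and HGI 10, with a median of 0.27 and 6 at that p on the higher side (5.04% of all genes). With all mice the 5 were Gpnmb, Mmp12, Mpeg1, Cd84 and Ctss. The other macrophage markers did not reach it, among them Adgre1 (0.09), Cd68 (0.12), Csf1r (0.04) and Cd14 (-0.08). The adipocyte and macrophage lists were chosen with earlier results of these data known, so their counts are no independent support. With the adipocyte marker mean as a covariate, 18 of the 28 genes were lower in HGI (49.4% of all genes) and the median difference was -0.03. Slc7a8 then differed by 0.35 and Aldh6a1 by -0.29, while Ivd differed by -0.11 and Acat1 by -0.04. In whole tissue, fewer adipocytes and less of a transcript per adipocyte cannot be told apart.

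Other cell types were read from shorter marker lists. Of all genes tested, 47.4% were lower in HGI with all mice and 49.9% without HGI 9 and HGI 10. An unadjusted p under 0.05 on the lower side was reached in limma by 3.78% and 2.75% of them. All 6 mesothelium markers were lower in HGI, 4 of them at an unadjusted p under 0.05, with a median difference of -0.22. All 6 were also lower without HGI 9 and HGI 10, 3 of them at that p, with a median of -0.21. Of 5 endothelial markers 4 were lower with all mice, with a median of -0.06, but 1 was lower without HGI 9 and HGI 10, with a median of 0.03. Kdr, a receptor of vascular endothelial growth factor, was lower at an unadjusted p under 0.05 in both settings. All 6 seminal vesicle markers were higher with all mice, with a median of 1.38, and 3 of the 6 were without HGI 9 and HGI 10, with a median of -0.00. With all mice their mean ran from -4.40 over -4.24 to 1.54 in HGI, against -4.44, -4.25 and -4.04 in LGI. Of the 4 epididymis markers measured 2 were lower, with a median of 0.05, or 1 with a median of 0.02 without HGI 9 and HGI 10. Their mean ran from -3.95 over -3.55 to -3.46 in HGI, against -3.80, -3.68 and -3.34 in LGI. Every mouse thus lay far below the pool in these markers, and the make-up of the pool was not tested. Of the 2 skeletal muscle markers measured 1 was lower, with a median of 0.23, or 0.09 without HGI 9 and HGI 10. The part of these cells in the differences below was not tested.

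The 3 transport genes had positive differences with all mice, but those of Slc7a5 and Slc3a2 rested on HGI 9 and HGI 10. Slc7a5 encodes LAT1, the light chain of a large neutral amino acid exchanger, and Slc3a2 its heavy chain, also known as CD98. Slc7a8 encodes LAT2, another light chain that pairs with Slc3a2 and exchanges small and large neutral amino acids. Slc7a8 ran from -0.36 over a median of 0.03 to 0.28 in HGI mice, against -0.76, -0.38 and 0.02 in LGI mice. The LGI median was below all 9 HGI mice, which held for 1.81% of all genes tested, yet the ranges overlapped. Slc7a8 averaged -0.00 ± 0.18 in HGI (SD, n = 9) and -0.35 ± 0.27 in LGI (SD, n = 8). In limma the difference was 0.34 ± 0.10 (SE), with a 95% interval of 0.13 to 0.56 and an adjusted p of 0.520 (unadjusted 0.00301), so that HGI stood at 127% of LGI. It was 0.34 without HGI 9 and HGI 10, 0.30 within the 8 arrays scanned first and 0.38 within the 9 scanned later. Slc7a8 ranked 85 by p among all genes tested.

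The difference of Slc7a5 rested on the mice that stood apart. Slc7a5 ran from -1.25 over -0.998 to 0.35 in HGI, against -1.23, -1.04 and -0.63 in LGI. The highest values were 0.35 in HGI 9 and 0.22 in HGI 10, and the medians of the diets lay close together. The difference was 0.26 ± 0.20 (SE) with all mice and -0.03 without HGI 9 and HGI 10. Slc3a2 was likewise highest in HGI 9 (0.58) and HGI 10 (0.41), and its difference of 0.16 ± 0.14 (SE) was -0.03 without them. Another probe of Slc3a2 differed by -0.19, the opposite sign.

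Of the aminotransferases, Bcat1 and Bcat2 differed in opposite directions. Bcat1 encodes the cytosolic enzyme and Bcat2 the mitochondrial one, the main form in adipocytes. Bcat1 was well above background on 13 arrays (7 HGI, 6 LGI), its spot in HGI 10 was dropped, and its other probe was not well above background on any array. It averaged 0.19 ± 0.30 in HGI (SD, n = 8) and 0.01 ± 0.12 in LGI (SD, n = 8), a difference of 0.18 ± 0.11 (SE). Without HGI 9, which had the lowest HGI value, and HGI 10 the difference was 0.26, with an unadjusted p of 0.00780 in limma that did not pass the adjustment over all genes. Bcat2 ran from -0.34 over -0.18 to -0.03 in HGI, against -0.23, -0.15 and 0.06 in LGI, and 7 of the 9 HGI mice lay below the LGI median (9.58% of all genes). Its difference was -0.08 ± 0.06 (SE), with a 95% interval of -0.21 to 0.04.

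The branched-chain ketoacid dehydrogenase complex had lower means in HGI for all of its subunits, as did 47.4% of all genes tested. Bckdha and Bckdhb encode the alpha and beta subunits of E1, the decarboxylase, Dbt encodes the E2 core and Dld the E3 subunit, which pyruvate and oxoglutarate dehydrogenases share. Bckdhb ran from -0.37 over -0.03 to 0.24 in HGI, against -0.25, 0.11 and 0.53 in LGI. Bckdha ran from -0.42 over 0.04 to 0.29 in HGI, against -0.18, 0.10 and 0.49 in LGI. Dbt ran from -0.28 over -0.12 to 0.12 in HGI, against -0.27, 0.00 and 0.27 in LGI. For each of these 3 genes 8 of the 9 HGI mice lay below the LGI median, which held for 5.44% of all genes tested, and the ranges overlapped over most of their length.

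The differences were -0.18 ± 0.09 for Bckdhb, -0.13 ± 0.09 for Bckdha, -0.12 ± 0.08 for Dbt and -0.12 ± 0.08 for Dld (SE), none with an unadjusted p under 0.05 in limma. Their 95% intervals reached from -0.38 to 0.01 for Bckdhb and from -0.33 to 0.06 for Bckdha. The regulators lay on either side of 0. Bckdk, the kinase that switches the complex off, ran from -0.44 over -0.23 to 0.42 in HGI, against -0.37, -0.22 and -0.01 in LGI. Its difference of 0.08 ± 0.10 (SE) came with high values in HGI 9 (0.42) and HGI 10 (0.23) and was -0.05 without them. Ppm1k, the phosphatase that switches the complex on, ran from -0.32 over -0.09 to 0.39 in HGI, against -0.33, 0.01 and 0.49 in LGI, a difference of -0.12 ± 0.11 (SE).

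All 4 genes of the leucine branch had lower means in HGI (47.4% of all genes tested did), with a median difference of -0.11. Without HGI 9 and HGI 10 all 4 were lower as well (49.9% of all genes), with a median of -0.04. Ivd, isovaleryl-CoA dehydrogenase, catalyses the first step of the branch and differed most of the 4. It ran from -0.19 over 0.07 to 0.25 in HGI, against -0.08, 0.25 and 0.36 in LGI, and 8 of the 9 HGI mice lay below the LGI median (5.44% of all genes). Ivd averaged 0.03 ± 0.16 in HGI (SD, n = 9) and 0.22 ± 0.15 in LGI (SD, n = 8). The difference in limma was -0.19 ± 0.08 (SE), with an adjusted p of 0.582 (unadjusted 0.0222), and a second probe gave -0.13. It was -0.15 without HGI 9 and HGI 10, with an unadjusted p of 0.0725 in limma, and -0.19 and -0.20 within the earlier and later scan groups. Mccc1 and Mccc2, the subunits of methylcrotonyl-CoA carboxylase, differed by -0.14 ± 0.11 and -0.09 ± 0.10 (SE), or -0.04 and -0.005 without HGI 9 and HGI 10. Auh, the methylglutaconyl-CoA hydratase that follows them, differed by -0.06 ± 0.07 (SE), and another of its probes gave 0.05.

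In the isoleucine branch and ketone use, Acat1 was lower in HGI with little scatter and Oxct1 lay near 0. Acat1 is the mitochondrial thiolase that splits the last intermediate of isoleucine and also acetoacetyl-CoA from ketone bodies. It ran from -0.22 over 0.04 to 0.12 in HGI, against -0.02, 0.11 and 0.20 in LGI, with 8 of the 9 HGI mice below the LGI median (5.44% of all genes). Acat1 averaged -0.01 ± 0.11 in HGI (SD, n = 9) and 0.11 ± 0.07 in LGI (SD, n = 8), a difference of -0.12 ± 0.06 (SE) with an adjusted p of 0.633 in limma (unadjusted 0.0420). Without HGI 9 and HGI 10 it was -0.08, with an unadjusted p of 0.176 in limma. Oxct1, which activates acetoacetate with CoA and is the committing step of ketone body use, ran from -0.83 over -0.08 to 0.14 in HGI, against -0.36, -0.24 and 0.07 in LGI. The lowest value was that of HGI 10. The difference with all mice was 0.02 ± 0.12 (SE), with a 95% interval of -0.22 to 0.26, and it was 0.11 without HGI 9 and HGI 10. Within the 8 arrays scanned first the difference was 0.26, and within the 9 scanned later it was -0.20. Acadsb, the dehydrogenase that opens the isoleucine branch, differed by -0.08 ± 0.08 and Hsd17b10, the hydroxyacyl-CoA dehydrogenase before Acat1, by -0.14 ± 0.10 (SE).

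The valine branch held the gene with the smallest p of the 28, Aldh6a1. It encodes methylmalonate-semialdehyde dehydrogenase, which turns the last semialdehyde of valine into propionyl-CoA. Aldh6a1 ran from -0.45 over -0.23 to -0.08 in HGI, against -0.27, 0.03 and 0.40 in LGI. The LGI median was above all 9 HGI mice, which held for 2.33% of all genes tested, and LGI 7 and LGI 9 lay within the HGI range, as did no other LGI mouse. Aldh6a1 averaged -0.26 ± 0.12 in HGI (SD, n = 9) and 0.03 ± 0.21 in LGI (SD, n = 8). The difference in limma was -0.29 ± 0.08 (SE), with a 95% interval of -0.46 to -0.12 and an adjusted p of 0.520 (unadjusted 0.00187), so that HGI stood at 81.7% of LGI. It was -0.30 without HGI 9 and HGI 10, -0.26 within the 8 arrays scanned first and -0.33 within the 9 scanned later. Aldh6a1 ranked 55 by p among all genes tested.

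The other genes of the valine branch differed by less than 2 SE each. Acad8, isobutyryl-CoA dehydrogenase, differed by -0.12 ± 0.07 and Hibch, which frees hydroxyisobutyrate from its CoA, by -0.15 ± 0.10 (SE). Hibadh, the next dehydrogenase, differed by -0.14 ± 0.14 (SE). That value rested on LGI 4, whose level of 1.11 was the highest of all mice, and it was -0.02 without LGI 4. Abat, an aminotransferase for beta-alanine, GABA and the semialdehyde's amino form, differed by 0.04 ± 0.12 (SE), and another of its probes gave -0.08.

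Propionyl-CoA from valine and isoleucine enters the citrate cycle through 3 enzymes. Pcca and Pccb, the subunits of propionyl-CoA carboxylase, each differed by -0.10 ± 0.07 (SE). Mcee, methylmalonyl-CoA epimerase, differed by 0.06 ± 0.07, or 0.13 without HGI 9 and HGI 10. Mut, the cobalamin-dependent methylmalonyl-CoA mutase, differed by -0.01 ± 0.07 (SE). The median of these 4 genes was -0.05. The medians of the earlier steps were 0.26 for transport, 0.05 for transamination and -0.12 for the dehydrogenase complex, and those of the branches were -0.11 for leucine, -0.10 for isoleucine and ketone use and -0.14 for valine. Without HGI 9 and HGI 10 the median was -0.03 for transport, where 2 of the 3 genes were then lower (49.9% of all genes), and 0.10 for transamination. It was then -0.11 for the dehydrogenase complex, -0.04 for leucine, -0.08 for isoleucine and ketone use, -0.15 for valine and -0.01 for propionyl-CoA.

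**Figure D2:**
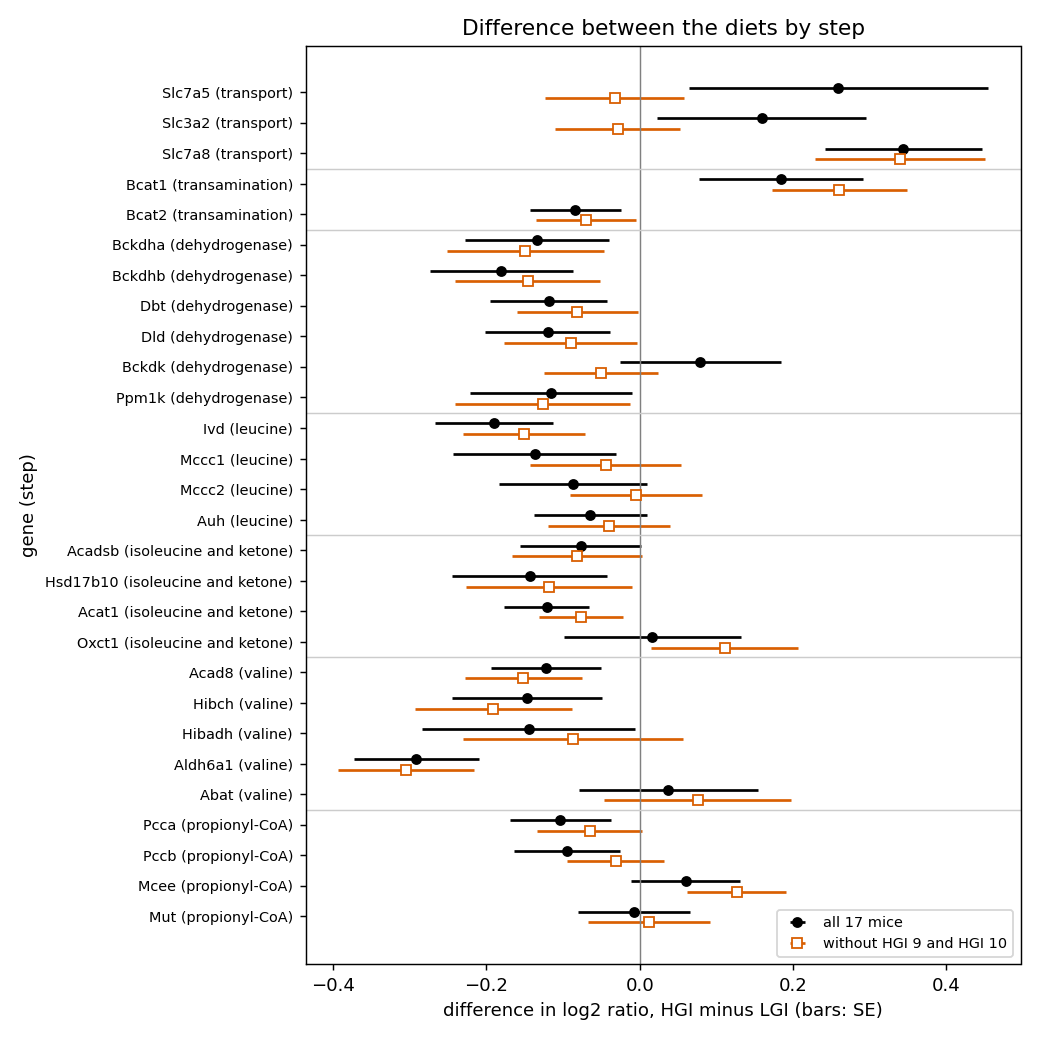
Difference in log2 ratio, HGI minus LGI, of each of the 28 genes by step, with bars of 1 SE, for all 17 mice (black circles) and without HGI 9 and HGI 10 (orange open squares). Slc7a8 at 0.34 and Aldh6a1 at -0.29 lie furthest to either side and hardly move between the settings, while Slc7a5 and Slc3a2 move to -0.03.

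**Figure D3:**
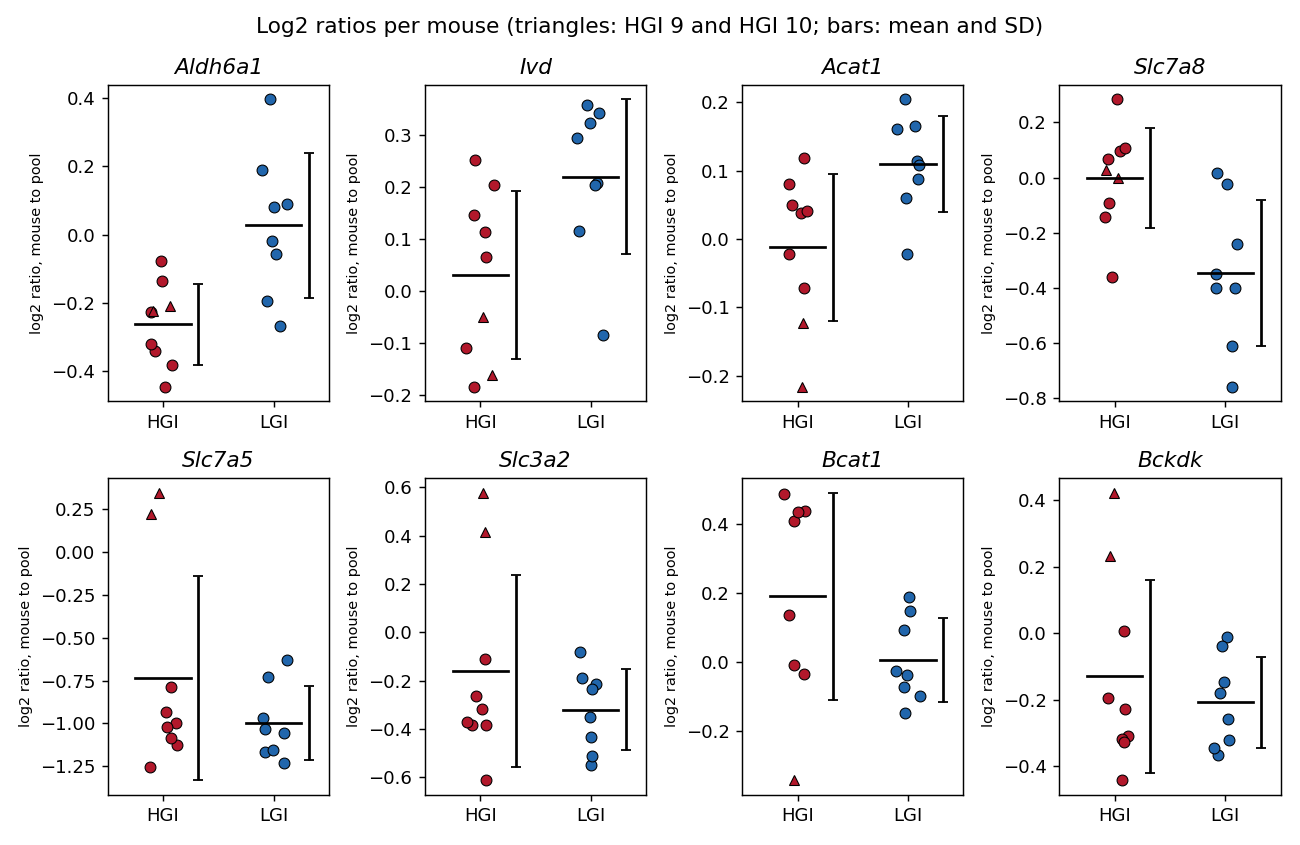
Log2 ratio to the pool of 8 genes in each mouse, HGI left and LGI right of each panel, with triangles for HGI 9 and HGI 10 and bars for the mean and SD. The diets overlap in every panel, and the highest points of Slc7a5, Slc3a2 and Bckdk are the triangles.

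Whether subunits of 1 complex ran together across mice was examined in 7 pairs, after each diet's mean was removed and without HGI 9 and HGI 10 (15 mice). The E1 subunits Bckdha and Bckdhb ran together, with Pearson's r of 0.80 (permutation p = 0.00042, adjusted p = 0.00294 over the 7 pairs) and Spearman's rho of 0.80 (adjusted p = 0.00413). Only 0.0993% of all genes correlated as highly with Bckdha. The r was 0.73 without the 2 mice farthest from the median of Bckdha and 0.70 over all 17 mice. Bckdha and Dbt had an r of 0.58 (permutation p = 0.0223, adjusted p = 0.0521) and Bckdhb and Dbt one of 0.45 (adjusted p = 0.131).

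The kinase Bckdk and the phosphatase Ppm1k, which act against each other, also had a positive r of 0.72 (permutation p = 0.00266, adjusted p = 0.00931) with a rho of 0.67 (adjusted p = 0.0280). That relation rested on few mice: r was 0.40 without the 2 mice farthest from the median of Bckdk (adjusted p = 0.402) and 0.47 over all 17 mice (adjusted p = 0.0814). For Mccc1 and Mccc2 r was -0.13 (adjusted p = 0.621) and for Pcca and Pccb 0.40 (adjusted p = 0.170), by the same permutation test. Slc7a5 and Slc3a2 had an r of -0.48 (adjusted p = 0.120) in the 15 mice and 0.72 over all 17, where HGI 9 and HGI 10 are high for both genes. The points of each pair share an array and its normalization.

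**Figure D4:**
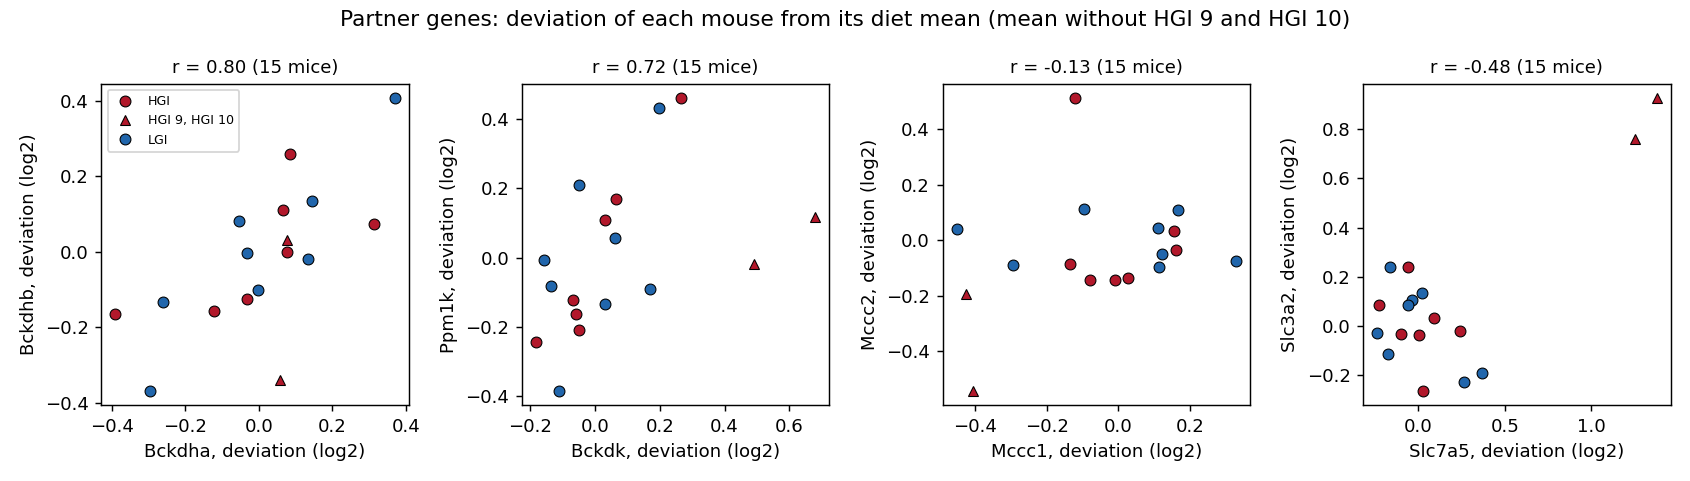
Deviation of 2 genes from their diet's mean log2 ratio in each mouse, for 4 pairs, with HGI 9 and HGI 10 (triangles) left out of the means and of r, which is over the other 15 mice. Bckdha and Bckdhb lie along a rising line (r = 0.80), Bckdk and Ppm1k spread along a few far mice (r = 0.72), and Mccc1 with Mccc2 (r = -0.13) and Slc7a5 with Slc3a2 (r = -0.48) do not lie along one.

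Genes next to the pathway, which carry its substrates or take up its products, were counted from a list of 42, of which 41 were measured. Of these 27 were lower in HGI (47.4% of all genes), the median difference was -0.03, and 8 reached an unadjusted p under 0.05 (7.74% of all genes), all of them lower (3.78%). When HGI 9 and HGI 10 were left out, 26 were lower (49.9%), the median was -0.03, and 3 reached that p, all lower (2.75%): Echs1, Hadh and Sdha. None had an adjusted p under 0.05 in limma. Echs1 (-0.20 ± 0.07, SE) and Hadh (-0.23 ± 0.08) hydrate and oxidise short acyl chains, and Aldh2 (-0.24 ± 0.09) oxidises aldehydes in the mitochondrion. Slc25a44 (-0.19 ± 0.08) carries branched-chain amino acids across the inner mitochondrial membrane, in the step between the transporters of the cell surface and Bcat2. Sdha (-0.18 ± 0.07) belongs to succinate dehydrogenase, and Dlat (-0.14 ± 0.06) and Dlst (-0.12 ± 0.06) are the E2 cores of the pyruvate and oxoglutarate dehydrogenases, the relatives of Dbt. Aacs (-0.32 ± 0.15) activates acetoacetate in the cytosol for lipid synthesis, beside the mitochondrial route through Oxct1.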

How the data were processed

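RNA of 17 mice (9 HGI, 8 LGI) was measured on 2-colour Agilent arrays, each Cy5 sample against a Cy3 pool, 1 array per slide. The scanner files hold spot intensities and flags, as Agilent Feature Extraction 9.1.3.1 wrote them per the file headers (9.5.1.1 per the submitters' processing notes). A table of log2 values deposited by the authors lists 19836 probes, with column medians of 8.329 to 8.331 and correlations of 0.971 to 0.985 with log2 Cy5. How it was normalized and centred is not given in the sources used here, and it was an alternative only.

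In limma 3.58.1 (R 4.3.3), normexp (offset 50) corrected the background and ratios were normalized within arrays by loess, with control and flagged spots at weight 0. Flagged spots (4 to 43 per array) were dropped, 1 of them a member's, and spots of a probe were averaged, giving 41174 probes. Probes well above background in Cy5 on at least 8 arrays (25515) were kept, and the brightest per gene gave 18134 genes. Probes were named from RefSeq's list of genes for GRCm38.p6, through the accession (23374), the symbol (6733) or an older symbol (2919), and 8148 are called as in the file. On an array, 54.2% to 66.7% of spots were well above background, and the number of arrays limits precision.

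The diets were compared by lmFit and eBayes over all genes, two-sided, with p adjusted by Benjamini-Hochberg. The labels number the samples and say no more of each animal, and a p-value takes account only of the scatter of these samples. Correlations used 100000 resamples, two-sided. The fit was tested on simulated data with 50 changed genes per size, at an adjusted p under 0.05. It recovered 13 of 50 at a difference of 0.25, 36 at 0.5, 50 at 1 and 48 at -1. Most simulated differences of 0.25 were thus missed. The members, the adjacent genes and the marker lists were chosen with earlier results of these data known. Ranges are given for members with an unadjusted p under 0.05 and for a named set of members. The alternatives were other background, normalization, filter and probe rules, the authors' values, array weights, scan groups, the replicate block, the adipocyte covariate and mice left out; the correlations over all 17 mice and without 2 far mice, and the gene lists without HGI 9 and HGI 10, were added after the data were seen. Files were read with data.table (version 1.17.8), and plots were made in Python 3.11.15 with matplotlib 3.10.9.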

Additional observations from a re-analysis of the deposited data

Results flagged for a closer look

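Each gene's highest and lowest mouse was set against the rest of its diet with Dixon's criterion at the 95% level, in 56 groups of mice, where chance flags about 1 group in 20. It marked 2, both of Hibadh, the hydroxyisobutyrate dehydrogenase of the valine branch. In HGI the value of -0.27 in HGI 9 lay below the nearest value, -0.02 in HGI 10. In LGI the value of 1.11 in LGI 4 lay above the nearest, 0.32 in LGI 2. The cause was not tested.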

How the results depend on the processing

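Over 34 alternatives, 903 of 951 differences of the 28 genes kept their sign and none passed the adjusted threshold. The alternatives overlap: many leave out 1 mouse, and the filters on dim or saturated probes left the differences of the measured genes unchanged. These counts are therefore no independent support. Throughout the alternatives 16 genes kept their sign, among them Slc7a8 (unadjusted p under 0.05 in limma in 33 of the 34) and Aldh6a1 (32 of 34). The causes of the 48 reversals were not tested. By setting, the reversed differences were: Mut 0.0502 with median centring and 0.0112 with processed signals; Oxct1 -0.0200, Hibadh 0.0464 and Mut 0.00282 with Cy5 alone; Mccc2 0.140, Acadsb 0.0220, Oxct1 -0.0224 and Mut 0.0905 in the authors' values. They were Slc3a2 -0.0148 and Abat -0.0227 with the mean over probes, and Bckdk -0.00849 and Mut 0.0337 with array weights. Without HGI 9 and HGI 10 they were Slc7a5 -0.0327, Slc3a2 -0.0285, Bckdk -0.0506 and Mut 0.0118, and without LGI 9 as well, Slc3a2 -0.0558, Bckdk -0.0263 and Mccc2 0.00107. They were Abat -0.00585 and Mut 0.15 in the arrays scanned first, and Ppm1k 0.0382 and Oxct1 -0.200 in those scanned later. With the adipocyte covariate they were Slc7a5 -0.0278, Bckdk -0.0986, Mccc1 0.0193, Hibadh 0.0228, Pccb 0.00965 and Mut 0.0719. Genes with an adjusted p under 0.05 numbered 1 with Cy5 alone and with array weights. Members with an unadjusted p under 0.05 numbered 2 with median centring (6.19% of all genes), 2 with processed signals (7.26%) and 2 in the later arrays (3.15%). They numbered 1 in the arrays scanned first (4.08% of all genes) and 7 with array weights (10%). Leaving out 1 mouse gave 0 to 3 genes with an adjusted p under 0.05 (3 without LGI 7). It gave 3 to 6 members with an unadjusted p under 0.05 (6 without LGI 9), against 5.91% to 8.99% of all genes (7.32% without LGI 9). Between 19 and 22 members were lower (46.5% to 48.1% of all genes), with a median of -0.13 to -0.08. Differences ran from -0.0234 to 0.0975 for Oxct1, -0.0278 to 0.0912 for Abat and -0.0401 to 0.0236 for Mut. Same-numbered mice of the diets did not deviate together (correlations of -0.38 to 0.26, 2 of 7 best with their own number). The labels do not say whether the numbers pair the mice, and these correlations cannot settle it. On the 14 arrays that share numbers the block gave 2 members with an unadjusted p under 0.05 (6.45% of all genes) and Mut at 0.0107. Without the block these arrays gave 3 members (6.69%) and Mut at 0.0107. Over all 17 mice r was 0.23 for Mccc1 and Mccc2, 0.56 for Pcca and Pccb, 0.72 for Slc7a5 and Slc3a2 and 0.47 for Bckdk and Ppm1k, the last 0.40 without the 2 far mice; these settings were chosen after seeing the data. A filter on all 17 arrays leaves out Bcat1, which was well above background on 13.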
